A study of Mus musculus with 12 samples.

Results

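The 49 genes described here are the interferon response genes: a fixed list of mouse symbols, from Stat2 to Ly6a, whose members are induced by interferons or carry the interferon signal to the nucleus. The rule names them by symbol and sets no threshold on a measured value, and the list was drawn up with earlier results of these data known. All 49 were found among the 45706 genes of the count table, and all 49 were measured well enough to be tested, with raw counts between 34 and 28500 in every library.

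Interferons are secreted proteins with which cells answer viruses and other infections. Type I interferons act through the receptor chains Ifnar1 and Ifnar2 and the kinases Jak1 and Tyk2, which activate a complex with Stat2 and Irf9 that binds interferon-stimulated response elements in promoters. Interferon gamma, made by T and NK cells, acts through Ifngr1 and Ifngr2 and on gamma-activated sites in promoters. Cells at rest hold a low tonic level of the same genes. Proteins of the list sense foreign RNA, degrade or trap it, build GTPase coats on pathogen vacuoles, and cut and carry peptides for MHC class I. The comparisons addressed whether these genes differed between T cells with and without Coro1a, which encodes the actin-binding protein coronin 1, and between conventional and regulatory T cells, the second being the Foxp3-dependent suppressive lineage.

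Polyadenylated RNA was sequenced from murine T cells in 4 groups of 3 libraries: wild-type (WT) conventional, Coro1a knockout (KO) conventional, WT regulatory and KO regulatory T cells. The labels give the genotype and the cell type of each library, name no treatment in any of them, and do not give strain, age, type of Coro1a allele, tissue of origin or sorting gate. They do not say which replicates came from separate animals, so p-values measure only the spread between these libraries, which may be technical in part. In both conventional groups replicate 3 differed from the other replicates in its sex-linked reads. Values are read counts relative to library size (CPM) after scaling of the libraries by edgeR's trimmed mean of M-values (TMM). A change was called at an adjusted p below 0.05 in edgeR's quasi-likelihood test, adjusted by Benjamini-Hochberg over all 15922 genes tested; adjusted p-values below are from this test unless another is named.

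Libraries held between 19686870 and 33404302 gene counts. Coro1a was at 2124, 2361 and 2399 CPM in WT conventional and 44.1, 47.3 and 44.1 CPM in KO conventional libraries, and at 2712, 2503 and 2312 CPM in WT regulatory and 20.9, 28.8 and 30.4 CPM in KO regulatory libraries, so the targeted gene was low in all 6 KO libraries. Foxp3 was at 23.7, 50.1, 520.1 and 573 CPM on average in the 4 groups in the order above. The regulatory libraries also held B cell transcripts: 10 B cell markers summed to between 3928 and 5459 CPM in them, against 5.19 to 7.17 CPM in WT conventional and 36.4 to 61.1 CPM in KO conventional libraries. Xist, expressed from an inactive X chromosome, and Y-linked genes split the libraries. Replicate 3 of WT conventional and of KO conventional had Y-linked reads where replicates 1 and 2 had Xist reads. Of the regulatory libraries, 4 had both kinds at 1 CPM or more and 2, WT replicate 3 and KO replicate 1, had both at 5 CPM or more. WT regulatory replicates 1 and 2 and KO regulatory replicates 2 and 3 held 287 to 308 CPM of Y-linked reads and at most 1.51 CPM of Xist. Xist prevailed in replicates 1 and 2 of both conventional groups, at 1211 to 1746 CPM. Sex-linked reads thus differed between the cell types too.

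Levels per kilobase of exon give the order of the genes in WT conventional T cells. The highest were Ifi47 at 117 CPM per kilobase and Igtp at 105, both immunity-related GTPases, followed by the surface protein gene Ly6a at 103, the immunoproteasome subunit gene Psmb8 at 95.4 and the transcription factor gene Irf1 at 83.8. The lowest were Ifi44 at 0.551, Mx1 at 1.499 and Rsad2 at 1.77. The 3 lowest are known for strong induction by type I interferon. The top neighbours in this order, Ifi47 and Igtp, did not separate: their WT conventional libraries held 282, 277 and 309.99 CPM for Ifi47 and 219, 188 and 233 CPM for Igtp, which on the scale per kilobase overlap, as do Igtp and Ly6a (122, 109 and 140.1 CPM).

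Many of these genes carry interferon elements near their start. Promoters of 300 bases (250 before and 50 after the RefSeq start, build GRCm38.p6) were matched for 37 of the 49 genes. The interferon-stimulated response element was searched on both strands as GAAA, 2 bases of any kind, then GAAA. It was present in at least 1 promoter of 21 of the 37 genes (56.8%) and of 3.99% of 27025 genes with a promoter (3.44% of 32851 promoters). The gamma-activated site, searched as TTCNNNGAA on both strands, was present in 13 of the 37 genes (35.1%) and in 9.55% of all genes with a promoter (8.3% of promoters). A match is a description of the letters and no evidence of binding. Shown here are the 3 genes with the smallest p among carriers of the first motif in the comparison of KO with WT conventional T cells, which all rose there; capitals mark the matches.
Oas1a promoter, chr5:120907476-120907775, minus strand: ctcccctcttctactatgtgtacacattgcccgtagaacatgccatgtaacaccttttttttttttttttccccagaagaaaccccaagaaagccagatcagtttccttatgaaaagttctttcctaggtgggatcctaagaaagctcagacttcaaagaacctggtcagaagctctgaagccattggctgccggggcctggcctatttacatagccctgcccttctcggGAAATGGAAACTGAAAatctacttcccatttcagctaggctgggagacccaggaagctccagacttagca
Gbp3 promoter, chr3:142559794-142560093, plus strand: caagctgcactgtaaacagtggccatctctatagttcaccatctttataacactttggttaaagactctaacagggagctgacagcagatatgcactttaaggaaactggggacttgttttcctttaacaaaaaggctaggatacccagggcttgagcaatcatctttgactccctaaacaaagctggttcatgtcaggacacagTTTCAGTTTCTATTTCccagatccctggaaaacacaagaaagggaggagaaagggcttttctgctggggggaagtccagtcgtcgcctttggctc
Eif2ak2 promoter, chr17:78882523-78882822, minus strand: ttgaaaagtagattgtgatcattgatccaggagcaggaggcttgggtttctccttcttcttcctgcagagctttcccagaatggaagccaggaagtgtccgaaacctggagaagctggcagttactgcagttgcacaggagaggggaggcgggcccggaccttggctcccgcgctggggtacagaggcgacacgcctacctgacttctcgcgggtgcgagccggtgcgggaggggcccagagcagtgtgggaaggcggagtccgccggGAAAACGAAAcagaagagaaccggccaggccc
In Oas1a the first of a pair of overlapping matches begins at base -20 from the start. In Gbp3 the first of an overlapping pair, on the opposite strand, begins at -45, and in Eif2ak2 1 match begins at base 19 after the start. Another promoter of Gbp3, chr3:142560106-142560405, held 0 matches of the first motif. By the calls in that comparison, among genes with a promoter, 7 of 8 that rose held the first motif in at least 1 promoter. It was held by 3 of 9 that fell and 11 of 20 not called. The gamma-activated site was held by 3 of 8, 3 of 9 and 7 of 20.

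In conventional T cells, KO and WT libraries differed in 18 of the 49 interferon response genes, 9 higher and 9 lower in KO. The 9 that rose were Mx1, Oas1a, Rsad2, Oasl2, Gbp3, Eif2ak2, Gbp5, Oas3 and Ifih1, most of them antiviral effectors, by 0.41 to 1.85 on the log2 scale. The 9 that fell were Ifit2, Igtp, Ifi47, Irf9, Ifi35, Slfn5, Tap1, Slfn8 and Psmb9, with smaller changes between -0.63 and -0.19. The share called was 18.4% in each direction; over all genes tested it was 23.3% higher and 25.4% lower. The median log2 fold change of the 49 was -0.06 and that of all genes -0.05. The median absolute change was 0.19, against 0.32 over all genes, and 3 of the 49 (Mx1, Oas1a and Rsad2) were called at a change of at least 2-fold, against 17.3% of all genes.

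The direction of the smaller changes rests on the library scale. Scaled to 6 T cell genes (Lat, Cd6, Cd5, Cd3d, Cd3e and Cd3g), whose own log2 fold changes were -0.70 to -0.50, the median of all genes moved up by 0.58, and 26 of the 49 were called higher (44% of all genes) and 0 lower (0.377% of all genes; 0 members also at an unadjusted p below 0.05, edgeR). The 9 genes that rose on the first scale were higher on the second as well, with adjusted p-values between 1.33e-04 and 0.00256. Of the 9 that fell, Ifit2 was at -0.04 and the others at values from 0.00412 (Igtp) to 0.40 (Psmb9), none past the threshold. In bulk RNA, fewer cells of a type and less RNA per cell cannot be told apart.

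**Figure D1:**
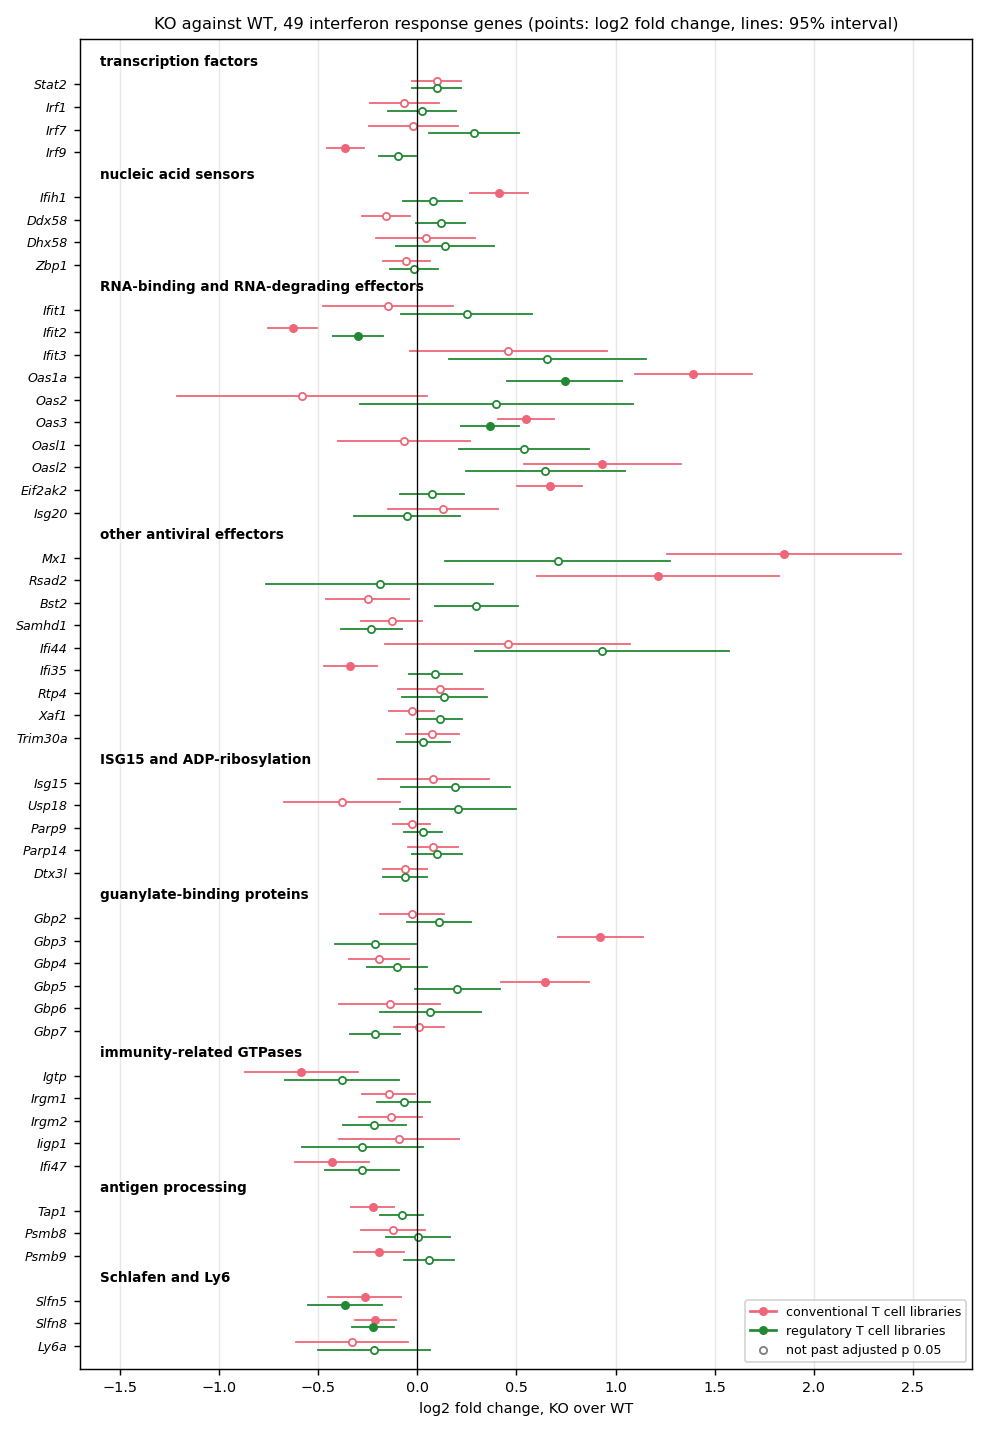
Log2 fold changes of KO over WT for all 49 genes, ordered by role, in conventional (red) and regulatory (green) T cell libraries; lines are 95% intervals from the SE of the fit over 12 libraries, and filled points passed an adjusted p of 0.05. Mx1, Oas1a and Rsad2 reach 1.85, 1.39 and 1.21 in conventional libraries, and the lowest filled points, Ifit2 and Igtp, lie at -0.63 and -0.58.

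Among the 4 transcription factors, Irf9, the DNA-binding subunit of the type I interferon complex, fell. It was at 180.1, 176 and 191 CPM in WT against 134, 147 and 143 CPM in KO conventional libraries, and every KO library lay below every WT library (log2 fold change -0.36 ± 0.0476 (SE), adjusted p = 1.25e-04). Its partner Stat2 was at 91.6 and 97.9 CPM, the tumour suppressor and interferon gamma target Irf1 at 333 and 319 CPM, and Irf7, the amplifier of interferon alpha transcription, at 98.7 and 97.4 CPM; these 3 did not pass the test. Among the 4 sensors, Ifih1, which encodes the double-stranded RNA sensor MDA5, rose from 38.8, 39.8 and 41.96 to 50.7, 50.9 and 58.9 CPM (log2 fold change 0.41 ± 0.0756 (SE), adjusted p = 0.00105), with no overlap of the groups. Ddx58, which encodes RIG-I, the sensor of uncapped RNA ends, lay at 205, 200.2 and 203 CPM in WT against 187, 185 and 175 CPM in KO and just missed the threshold (adjusted p = 0.0535). Dhx58 and Zbp1 did not pass.

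Of the 10 RNA-binding and RNA-degrading effectors, 4 rose and 1 fell (all genes 23.3% higher and 25.4% lower). The oligoadenylate synthetases make the second messenger that activates RNase L. Oas1a was at 7.2998, 7.92 and 7.37 CPM in WT against 18.6, 17.3 and 23.4 CPM in KO conventional libraries, 2.63-fold higher (log2 fold change 1.39 ± 0.1505 (SE), adjusted p = 3.40e-05). The lowest KO library was more than 2-fold above the highest WT library. Oas3 rose from 47.1, 45.2 and 51.03 to 72.8, 63.95 and 72.7 CPM (log2 fold change 0.55 ± 0.0722 (SE), adjusted p = 1.30e-04). The related gene Oasl2 rose from 15.8, 18.3 and 25.4 to 41.96, 32.98 and 38.5 CPM (log2 fold change 0.93 ± 0.202 (SE), adjusted p = 0.00294), again without overlap. Eif2ak2, which encodes the kinase PKR that stops translation on double-stranded RNA, rose from 29.5, 29.05 and 31.4 to 43.8, 46.2 and 53.1 CPM (log2 fold change 0.67 ± 0.0834 (SE), adjusted p = 9.13e-05).

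Neighbouring genes of the same families had other values. Oas2 lies next to Oas3 on chromosome 5 and was at 36.2, 39.2 and 50.1 CPM in WT against 28.3, 24.1 and 31.4 CPM in KO libraries. These groups do not overlap and KO is the lower, but the spread kept Oas2 from a call (log2 fold change -0.58 ± 0.322 (SE), adjusted p = 0.155); with limma-voom the adjusted p was 0.0247 and with only the 6 conventional libraries in the fit 0.0237. Ifit2, a binder of viral RNA on chromosome 19, fell from 117, 112 and 122 to 78.6, 79.7 and 68.5 CPM (log2 fold change -0.63 ± 0.0622 (SE), adjusted p = 1.98e-05), the largest called decrease of the list. Its neighbours Ifit1 (27.2, 33.03 and 47.3 CPM against 32.3, 27.9 and 37.1 CPM) and Ifit3 (13.02, 14.2 and 22.8 against 22.6, 18.3 and 28.03 CPM) overlapped between genotypes and were not called, with log2 fold changes of -0.15 and 0.46. Ifit3 passed without WT conventional replicate 3 (log2 fold change 0.75, adjusted p = 0.0337). Reads of Oas1a and Ifit3 that also fit close copies of these genes were tallied apart, so their counts are uncertain in that respect.

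Of 9 other antiviral effectors, 2 rose and 1 fell (all genes 23.3% higher and 25.4% lower). Mx1, a dynamin-like GTPase that blocks influenza virus, had the highest fold change of the list. It was at 5.52, 3.65 and 7.85 CPM in WT against 17.4, 15.9 and 28.2 CPM in KO conventional libraries, 3.61-fold higher (log2 fold change 1.85 ± 0.301 (SE), adjusted p = 5.10e-04). Replicate 3 was the highest library in both genotypes, and the lowest KO value was still above the highest WT value. Rsad2, which encodes viperin, a maker of an antiviral nucleotide, rose from 5.25, 6.39 and 11.3 to 19.5, 13.4 and 20.5 CPM (log2 fold change 1.21 ± 0.312 (SE), adjusted p = 0.00762), and its highest WT library came close to its lowest KO library. Ifi35 fell from 69.1, 68.2 and 77.5 to 55.5, 55.9 and 58.4 CPM (log2 fold change -0.34 ± 0.0682 (SE), adjusted p = 0.00189). Samhd1, the nucleotide hydrolase that restricts retroviruses and the most abundant of the group in CPM, was at 626 ± 35.6 and 572 ± 44.2 CPM (SD, n = 3) and did not pass, nor did Bst2, Ifi44, Rtp4, Xaf1 and Trim30a. None of the 5 genes of the ISG15 and ADP-ribosylation group passed: Isg15, the ubiquitin-like modifier, was at 16.1 and 17.1 CPM and Parp14 at 266 and 281 CPM. Usp18, the protease that removes ISG15, was at 21.3, 24.5 and 34.02 CPM in WT against 21.3, 18.02 and 21.9 CPM in KO (adjusted p = 0.0532); with DESeq2 it was called lower (adjusted p = 0.0481).

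The guanylate-binding proteins coat vacuoles and bacteria. Of 6, Gbp3 and Gbp5 rose and 0 fell (all genes 23.3% higher and 25.4% lower). Gbp3 was at 19.9, 15.5 and 16.4 CPM in WT against 27.5, 33.1 and 37.6 CPM in KO conventional libraries (log2 fold change 0.92 ± 0.109 (SE), adjusted p = 6.43e-05). Gbp5 was at 31.8, 26.02 and 24.4 CPM in WT against 35.6, 45.02 and 47.97 CPM in KO (log2 fold change 0.64 ± 0.113 (SE), adjusted p = 8.06e-04). For both genes all KO libraries exceeded all WT libraries. Gbp7, which lies between them on chromosome 3, was at 134, 121 and 134 CPM in WT against 126, 137 and 128 CPM in KO with a log2 fold change of 0.01, and Gbp2, on the same chromosome, had -0.03. Gbp4, on chromosome 5 and the most abundant in CPM, was at 327 ± 24.2 and 286 ± 17.5 CPM (SD, n = 3, adjusted p = 0.0584).

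The immunity-related GTPases, the antigen processing genes and the Schlafen genes form 3 groups with 11 members. On the TMM scale all 11 had log2 fold changes below 0, between -0.58 and -0.09, where the median of all genes was -0.05. These 3 were the only role groups with every value below 0. They were put together with results of these data known, so their shared direction is a description and no test. Of them 6 were called lower, against 25.4% of all genes, and 5 did not pass. With T cell gene scaling all 11 values were above 0, none called lower. Igtp fell from 219, 188 and 233 to 131, 156 and 140.5 CPM (log2 fold change -0.58 ± 0.146 (SE), adjusted p = 0.00664) and Ifi47 from 282, 277 and 309.99 to 210.1, 227 and 208 CPM (log2 fold change -0.43 ± 0.0953 (SE), adjusted p = 0.00338). Neither gene overlapped between genotypes. The annotated spans of Igtp and Irgm2 overlap on the same strand of chromosome 11, and Irgm2 had a log2 fold change of -0.13 that did not pass. Tap1, the peptide transporter of the MHC class I pathway, fell from 442, 412 and 441 to 357, 389 and 364 CPM (log2 fold change -0.22 ± 0.0553 (SE), adjusted p = 0.00625). Psmb9, an immunoproteasome subunit encoded beside it, fell by 0.19 (adjusted p = 0.0264), a call lost without any 1 of 5 conventional libraries (all but KO replicate 2; adjusted p 0.0502 to 0.115). Slfn8 and Slfn5, members of a family that limits growth and virus replication, fell by 0.21 and 0.27. The Slfn5 call was lost without any 1 of 5 conventional libraries (all but KO replicate 3; adjusted p 0.0502 to 0.121). Ly6a, which encodes Sca-1, was at 122, 109 and 140.1 CPM in WT against 75.8, 115 and 105 CPM in KO libraries and overlapped.

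**Figure D2:**
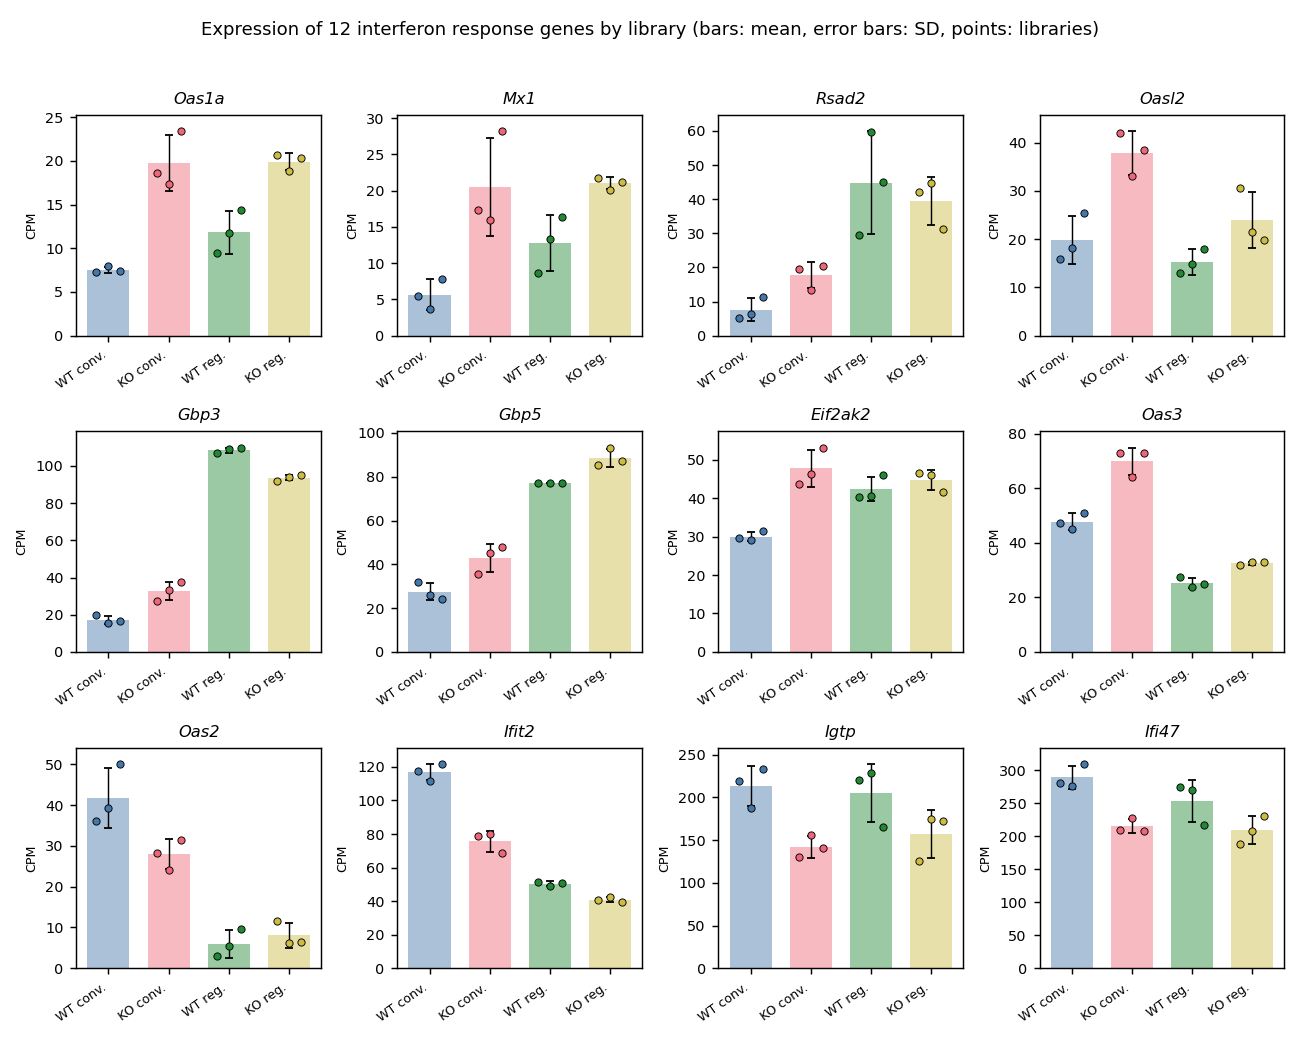
CPM of 12 of the genes in each library; bars are group means, error bars SD, and points the 3 libraries of a group, in the order WT conventional, KO conventional, WT regulatory and KO regulatory. Oas1a, Mx1, Gbp3 and Eif2ak2 are higher in every KO conventional library than in any WT one, Ifit2 is at 117 CPM in WT conventional and 40.96 CPM in KO regulatory libraries, and Gbp3 is at 17.3 CPM in WT conventional against 109 CPM in WT regulatory libraries.

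By ranges alone, 9 of the 49 genes had every KO conventional library above every WT one (28.1% of all genes) and 12 had every KO library below (35.5% of all genes). Transcripts of other cell types also differed between these libraries. Summed over a list, macrophage and monocyte markers ran from 251 to 332 CPM in WT and from 1639 to 3575 CPM in KO conventional libraries (11 of 11 markers higher), and NK cell markers from 127 to 142 and from 589.8 to 1093 CPM (11 of 11). Neutrophil markers ran from 8.74 to 15.8 and from 357 to 717 CPM (10 of 12 higher), dendritic cell markers from 3.599 to 5.31 and from 45.3 to 103 CPM (7 of 7), and B cell markers rose in 10 of 10. Plasmacytoid dendritic cells, known as strong producers of type I interferon, had markers at 38.4 to 48.4 and 147 to 187 CPM, and regulatory T cell markers were at 256 to 403 and 683 to 902 CPM (5 of 6 higher). Bst2, a member of the 49, is also on the plasmacytoid list of 10. It is left out of the sums of that list, which cover 9 genes, and stays in its counts of calls. No marker of these lists was at 0 counts in any group. The 6 T cell genes summed to 3063 to 3352 CPM in WT against 1949 to 2316 CPM in KO conventional libraries. KO conventional replicate 3 had the highest macrophage, NK and dendritic cell sums of its group. KO conventional replicate 1 had the highest neutrophil sum, 717 CPM. Replicate 3 was the highest library of its group for 7 of the 9 genes that rose. It was also the highest for 27 of the 49 (55.1%) and for 32.04% of all genes. Oasl2 and Oas3 were highest in KO replicate 1. The part of these cells in the changes of the 49 genes was not tested.

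In regulatory T cells, KO and WT libraries differed in 5 of the 49 genes. Oas1a and Oas3 rose and Slfn5, Ifit2 and Slfn8 fell, and all 5 had been called in the same direction in conventional T cells. The shares were 4.08% higher and 6.12% lower, against 4.01% and 3.82% of all genes. The median log2 fold change was 0.06 (all genes 0.00). Over all genes, 638 were called higher and 608 lower in regulatory T cells, and 814 were called in the same direction in both cell types. The log2 fold changes had the same sign in both cell types for 61.2% of the 49 and 66.7% of all genes. Oas1a was at 9.42, 11.8 and 14.3 CPM in WT against 20.7, 18.8 and 20.3 CPM in KO regulatory libraries (log2 fold change 0.74 ± 0.148 (SE), adjusted p = 0.0146). Oas3 was at 27.3, 23.7 and 24.7 CPM in WT against 31.7, 32.8 and 32.9 CPM in KO (log2 fold change 0.37 ± 0.07395 (SE), adjusted p = 0.0156). Every KO library exceeded every WT library for both.

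Ifit2 was at 51.4, 48.7 and 51.03 CPM in WT against 40.9, 42.4 and 39.6 CPM in KO regulatory libraries (log2 fold change -0.30 ± 0.0633 (SE), adjusted p = 0.0183). Slfn5 was at 117, 94.7 and 110.2 CPM in WT against 90.2, 85.8 and 74.1 CPM in KO (log2 fold change -0.36 ± 0.0955 (SE), adjusted p = 0.0418), and Slfn8 at 115, 111 and 114 CPM in WT against 90.6, 106 and 94.8 CPM in KO (log2 fold change -0.22 ± 0.0534 (SE), adjusted p = 0.0301). For these 3 genes the KO libraries lay below the WT libraries. All 5 calls were close to the limit of the test. With only the 6 regulatory libraries in the fit none passed (adjusted p 0.0603 to 0.1597; 11 members higher and 9 lower at an unadjusted p below 0.05), although DESeq2 called 4 higher and 6 lower. Oas1a and Oas3 were lost without WT replicate 2 (adjusted p 0.0522 and 0.0629) or KO replicate 3 (0.0507 and 0.0541), Ifit2 without WT replicate 1 (0.0534) or KO replicate 3 (0.0643), Slfn5 without WT replicate 1 or 3 or KO replicate 2 or 3 (0.0627 to 0.126), and Slfn8 without WT replicate 1 or 2 or KO replicate 1 or 3 (0.0629 to 0.09595). On the T cell gene scale 29 of the 49 were higher (32.1% of all genes) and 0 lower (0.258% of all genes; 0 members at an unadjusted p below 0.05), and Ifit2, Slfn5 and Slfn8 had values above 0.

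Transcripts of other cell types differed between the regulatory libraries too. NK cell markers summed to 192 to 218 CPM in WT against 249.8 to 385 CPM in KO libraries (3 of 11 called higher), and dendritic cell markers to 43.4 to 68.01 CPM and 76.7 to 129.9 CPM (0 of 7 called). Neither sum overlapped between genotypes. Neutrophil markers were at 63.6 to 119 CPM and 126 to 305 CPM (4 of 12 higher), again without overlap. Macrophage and monocyte markers were at 951 to 1221 CPM and 1000.3 to 1968 CPM. Plasmacytoid dendritic cell markers were at 135 to 170.04 CPM and 154 to 188 CPM, and B cell markers at 3928 to 5459 CPM and 4375 to 5341 CPM. Of these 3 lists 0 of 11, 0 of 10 and 0 of 10 were called higher, and the sums overlapped. Of the plasmacytoid markers 1 of 10 was called lower. The 6 T cell genes were at 1683 to 2323 CPM and 1083 to 1663 CPM (1 of 6 lower). The part of these cells in the regulatory comparison and in the test of the difference below was not tested.

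Several interferon-induced genes had higher values in KO regulatory libraries without a call. Mx1 was at 8.66, 13.4 and 16.3 CPM in WT against 21.8, 20.1 and 21.2 CPM in KO (log2 fold change 0.71 ± 0.289 (SE), adjusted p = 0.151). The KO libraries were close to each other and above all WT libraries. Oasl2 was at 12.9, 14.9 and 18.04 CPM in WT against 30.7, 21.6 and 19.8 CPM in KO (adjusted p = 0.0782) and Oasl1 at 14.1, 11.4 and 19.7 CPM in WT against 23.7, 20.2 and 21.8 CPM in KO (adjusted p = 0.0738). DESeq2 called both higher (adjusted p = 0.0297 and 0.0397). Ifi44 had the highest log2 fold change of the list, 0.93 ± 0.327 (SE), at 1.84, 1.36 and 3.09 CPM in WT against 5.63, 3.51 and 2.95 CPM in KO, with overlapping groups and an adjusted p of 0.103. In all, 11 of the 49 had every KO regulatory library above every WT one (13.2% of all genes) and 8 every one below (13% of all genes).

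Of the immunity-related GTPases, Igtp was at 220.3, 229 and 166 CPM in WT against 125, 175 and 172 CPM in KO regulatory libraries and Ifi47 at 274, 270.5 and 217 CPM in WT against 188, 209 and 231 CPM in KO. Neither passed (adjusted p = 0.131 and 0.0962), but without WT replicate 3 both were called lower, with log2 fold changes of -0.51 (adjusted p = 0.0365) and -0.38 (adjusted p = 0.0186), as was Irgm2 (-0.30, adjusted p = 0.0241). The same library decided upward calls as well: without it Ifit3, Oasl1, Oasl2 and Ifi44 were called higher, with log2 fold changes of 0.90, 0.78, 0.78 and 1.35 (adjusted p 0.00777 to 0.0487). WT regulatory replicate 3 is 1 of the 2 libraries in which Xist as well as Y-linked reads reached 5 CPM. Without both of these libraries Oas1a and Oas3 stayed called and Ifit2, Slfn5 and Slfn8 did not (adjusted p 0.0614 to 0.101), while Igtp and Ifi47 were called lower (0.04998 and 0.0332). Without the 4 libraries with both kinds of reads at 1 CPM or more, 1 library a group was left, assumed to vary like the others, and none of the 49 passed (Oas1a 0.1298, Oas3 0.135; 4 higher and 6 lower at an unadjusted p below 0.05).

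The change with genotype differed between cell types for 10 of the 49 genes (10.2% in each direction; over all genes 8.86% had a higher and 12.4% a lower difference, taken as the log2 change in regulatory minus that in conventional T cells). Gbp3 had the smallest p. It rose in conventional T cells, and in regulatory T cells its values were 107, 109 and 109.6 CPM in WT against 92.1, 93.9 and 95.1 CPM in KO, so all KO libraries were the lower ones there on the TMM scale (log2 fold change 0.31 with T cell gene scaling, not called); the difference was -1.14 ± 0.151 (SE, adjusted p = 6.85e-04). Eif2ak2 rose in conventional T cells and was at 40.4, 40.6 and 46.1 CPM in WT against 46.5, 45.9 and 41.6 CPM in KO regulatory libraries, where the groups overlapped (difference -0.59 ± 0.117, adjusted p = 0.00541). Rsad2 was at 29.6, 59.8 and 45.2 CPM in WT against 42.1, 44.8 and 31.4 CPM in KO regulatory libraries (difference -1.40 ± 0.427, adjusted p = 0.0372). Oas1a and Ifih1 also had smaller log2 changes with genotype in regulatory (0.74 and 0.08) than in conventional T cells (1.39 and 0.41), with differences of -0.65 and -0.34. Among those with a higher difference, Ifi35 had -0.34 in conventional and 0.09 in regulatory T cells (difference 0.43), Irf9 -0.36 and -0.10 (difference 0.27) and Ifit2 -0.63 and -0.30 (difference 0.33). Bst2, which encodes the virus tether tetherin, had -0.25 and 0.30 (difference 0.55), and Ddx58 -0.16 and 0.12 (difference 0.27), neither called in either cell type. Mx1, with a difference of -1.14 ± 0.413 (SE), did not pass (adjusted p = 0.0695). On the T cell gene scale 1 of the 10, Gbp3, was still called (all genes 0.188% higher and 5.78% lower). The 10 values kept their sign there, between -1.49 (Rsad2) and 0.48 (Bst2), and the median of all genes moved by -0.06. Leaving out 1 library at a time, 7 of the 10 (all but Gbp3, Eif2ak2 and Ifi35) lost the call in at least 1 run, and 1 to 7 genes had a higher and 2 to 5 a lower difference.

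More of the 49 genes, as of all genes tested, differed between cell types than between genotypes. In WT libraries 15 of the 49 genes were higher and 17 lower in regulatory T cells (30.6% and 34.7%; all genes 39.1% and 33.3%), and in KO libraries 16 were higher and 16 lower (32.7% each; all genes 36.1% and 31.7%). The medians were -0.08 and -0.03 (all genes 0.07 and 0.03). Scaled to the 6 T cell genes, 31 were higher and 2 lower in WT libraries (all genes 57.3% and 6.07%) and 26 higher and 2 lower in KO libraries (all genes 52.1% and 6.75%), the all-gene median having moved by 0.64 and 0.58. The 10 B cell markers were all higher in regulatory libraries of both genotypes, as given above. In WT regulatory libraries 10 of 11 macrophage, 7 of 7 dendritic cell, 9 of 10 plasmacytoid dendritic cell, 9 of 12 neutrophil and 6 of 11 NK cell markers were called higher than in conventional ones (1 of 12 neutrophil and 2 of 11 NK markers lower). In KO libraries 9 of 11 NK cell and 4 of 11 macrophage markers were lower (0 of 11 and 0 of 11 higher), and 5 of 7 dendritic cell markers were higher (0 of 7 lower). Neutrophil markers there were higher for 3 of 12 and lower for 2 of 12, and plasmacytoid ones for 4 of 10 and 3 of 10. The plasmacytoid markers called higher include Bst2, itself a member of the 49, in both genotypes. The part of RNA from any of these cells in the differences was not tested. Neither was that of the sex-linked reads, which also differed between the cell types as given above. Reads that map to several places, tallied apart, were 9.25% to 11.1% in conventional and 15.8% to 19.5% in regulatory libraries. Their part in the values of genes with close copies, such as Oas1a and Slfn8, was not tested.

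**Figure D3:**
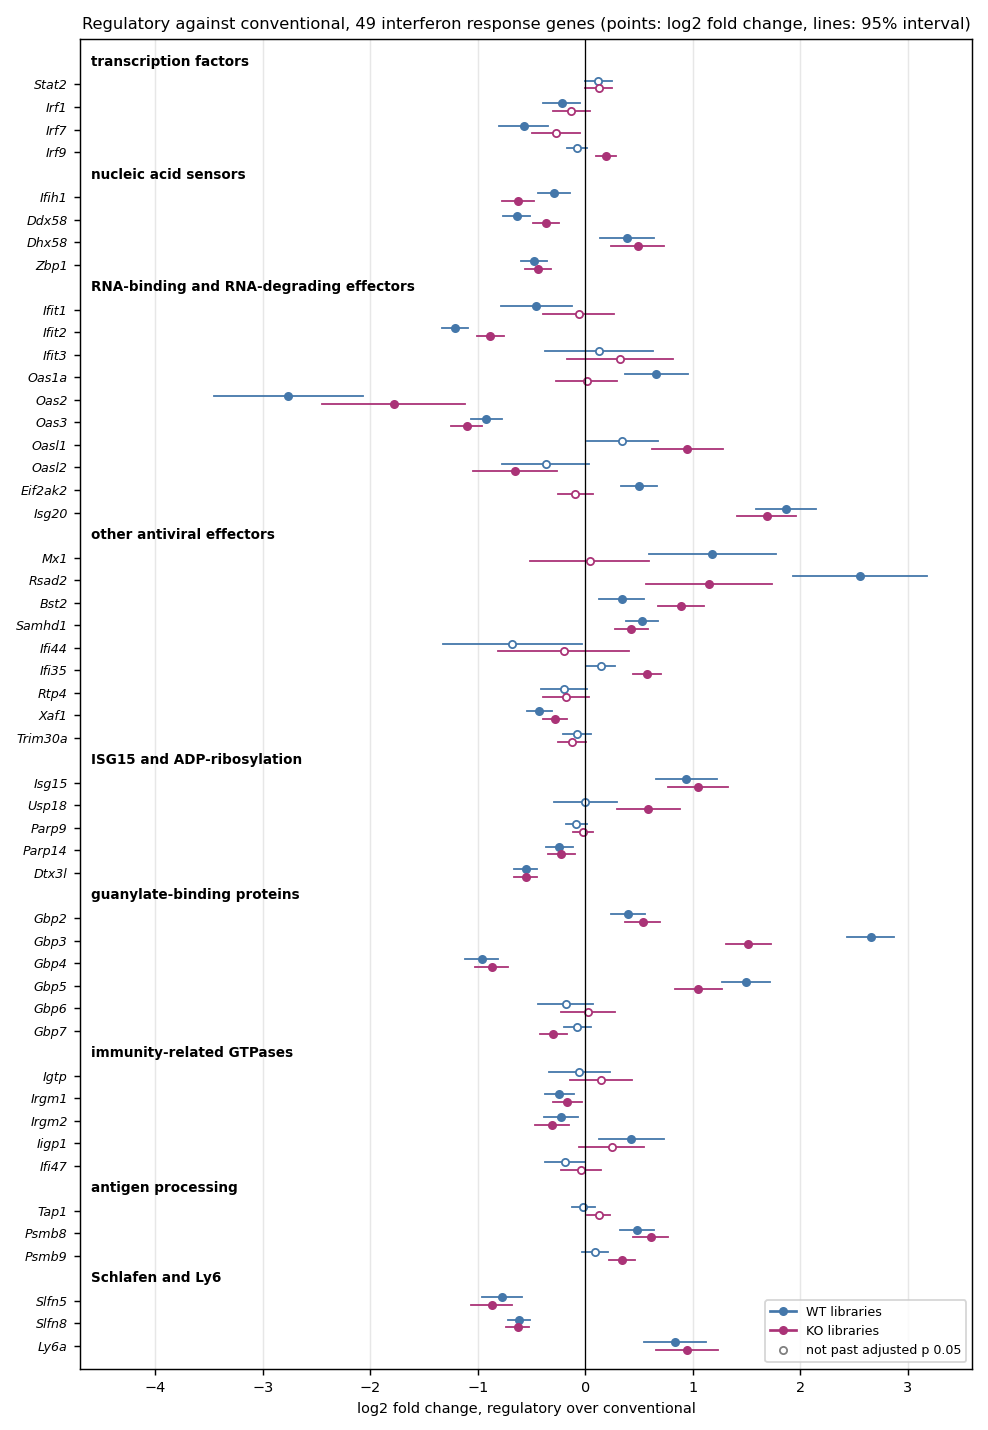
Log2 fold changes of regulatory over conventional T cell libraries for all 49 genes, ordered by role, in WT (blue) and KO (purple); lines are 95% intervals (from the SE) and filled points passed an adjusted p of 0.05. Gbp3, Rsad2 and Isg20 lie on the right in both genotypes and Oas2, Oas3, Ifit2 and Gbp4 on the left.

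Gbp3 was 6.29-fold higher in WT regulatory libraries, at 109 ± 1.35 CPM against 17.3 ± 2.31 CPM (SD, n = 3), and 2.86-fold higher in KO ones (log2 fold change 2.65 ± 0.113 (SE), adjusted p = 7.85e-09 in WT and log2 fold change 1.52 ± 0.107 (SE), adjusted p = 4.16e-07 in KO). Gbp5 was at 77.1, 76.97 and 77.1 CPM in WT regulatory libraries, 2.81-fold above conventional ones, and Gbp2 was 1.31-fold higher. Gbp4 fell, from 327 ± 24.2 to 168 ± 13.1 CPM (SD, n = 3; log2 fold change -0.96 ± 0.0781 (SE), adjusted p = 7.13e-07), and with T cell gene scaling it was not called in WT (-0.33, adjusted p = 0.0954) or KO (-0.30, adjusted p = 0.127). Gbp2, Gbp3, Gbp5 and Gbp7 lie together on chromosome 3 and Gbp4 and Gbp6 on chromosome 5. Gbp6 did not pass in either genotype, and Gbp7 passed, lower, in KO libraries (-0.30).

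Oas2 was at 2.92, 5.43 and 9.697 CPM in WT against 11.6, 6.23 and 6.503 CPM in KO regulatory libraries, and was 6.795-fold lower in WT and 3.44-fold lower in KO regulatory than conventional T cells (log2 fold change -2.76 ± 0.354 (SE), adjusted p = 2.71e-05 and log2 fold change -1.78 ± 0.339 (SE), adjusted p = 6.31e-04). Oas3 fell as well, by 0.92 in WT and 1.10 in KO; with T cell gene scaling the WT value was -0.28 and not called (adjusted p = 0.219). Oas1a was higher in WT regulatory libraries (log2 fold change 0.66 ± 0.151 (SE), adjusted p = 0.00201) and had 0.01 in KO, with 19.8 CPM in conventional and 19.9 CPM in regulatory libraries (not called). Oas1a, Oas2 and Oas3 lie within the same stretch of chromosome 5. Oas2 also had the widest spread between replicates of all 49 genes, with a within-group SD of 0.518 on the log2 scale against a median of 0.119 over the 49.

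Isg20, a 3′ to 5′ RNA exonuclease, was at 14.8, 16.7 and 20.6 CPM in WT conventional and 58.3, 77.6 and 53.8 CPM in WT regulatory libraries (log2 fold change 1.87 ± 0.144 (SE), adjusted p = 4.80e-07), with 1.68 in KO. Rsad2 rose from 7.66 to 44.8 CPM in WT (log2 fold change 2.55 ± 0.318 (SE), adjusted p = 2.17e-05) and from 17.8 to 39.4 CPM in KO (1.15, adjusted p = 0.00494). Isg15 rose from 14.2, 14.5 and 19.7 to 28.1, 36.1 and 28.6 CPM in WT, by 0.94, and by 1.05 in KO. Mx1 rose in WT (log2 fold change 1.18 ± 0.301 (SE), adjusted p = 0.00397) and did not pass in KO, at 20.5 and 21.02 CPM (log2 fold change 0.04 ± 0.284 (SE), adjusted p = 0.913). Ly6a rose by 0.83 in WT and 0.94 in KO, Psmb8 by 0.48 and 0.61, and Samhd1 by 0.53 and 0.42.

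Ifit2 was 2.32-fold lower in WT regulatory than WT conventional T cells (log2 fold change -1.21 ± 0.0634 (SE), adjusted p = 3.10e-08), and fell by 0.88 in KO. Of the sensors, Ifih1, Ddx58 and Zbp1 were lower and Dhx58 higher in regulatory T cells of both genotypes. Ddx58 fell from 203 to 130.1 CPM in WT, by 0.64, and by 0.37 in KO. Slfn5 and Slfn8 fell in both genotypes, by 0.77 and 0.62 in WT. Dtx3l, the ligase partner of Parp9, fell by 0.56 in WT and 0.56 in KO, while Parp9 did not pass. On the T cell gene scale Ddx58, Zbp1 and Dtx3l were above 0 in both genotypes and Slfn8 and Ifih1 in WT, none of them called. Below 0 but no longer called on that scale were Slfn5 in WT (-0.13) and KO (-0.28), and in KO Slfn8 (-0.06), Ifit2 (-0.30), Ifih1 (-0.04) and Oasl2 (-0.02). Some of the smaller WT calls hung on 1 library: Irf1 (-0.22), Dhx58 (0.39), Ifit1 (-0.46), Bst2 (0.34), Irgm2 (-0.23) and Iigp1 (0.43) were each lost when some single library of the compared groups was left out. In KO the same held for Irf9 (0.19), Oasl2 (-0.66) and Irgm1 (-0.17). Irf1 was lost without WT conventional replicate 1 or 2 or 3 or regulatory replicate 1 or 3 (adjusted p 0.0534 to 0.149). Dhx58 was lost without WT conventional replicate 1 or regulatory replicate 3 (adjusted p 0.0635 to 0.0791). Ifit1 was lost without WT conventional replicate 3 or regulatory replicate 1 or 2 or 3 (adjusted p 0.0503 to 0.153). Bst2 was lost without WT conventional replicate 1 or regulatory replicate 3 (adjusted p 0.05705 to 0.0621). Irgm2 was lost without WT conventional replicate 1 or 3 or regulatory replicate 3 (adjusted p 0.0593 to 0.102). Iigp1 was lost without WT conventional replicate 2 or regulatory replicate 2 (adjusted p 0.0958 to 0.112). Irf9 was lost without KO regulatory replicate 2 (adjusted p 0.176). Oasl2 was lost without KO regulatory replicate 3 (adjusted p 0.0525). Irgm1 was lost without KO conventional replicate 2 or 3 or regulatory replicate 1 or 3 (adjusted p 0.0584 to 0.1696).

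The libraries of a group did not share the highest values evenly. In WT conventional T cells replicate 3 was the highest of the 3 libraries for 34 of the 49 genes (69.4%, against 29.8% of all genes). In KO conventional T cells replicate 3 was highest for 27 (55.1%, against 32.04%). Both of these libraries were the highest of their group for 20 genes (40.8%, against 10.2% of all genes) and the lowest for 0 (17.96% of all genes), a pair of libraries chosen after their values were seen. Among the 20 were Ifit1, Ifit3, Isg15, Isg20, Mx1, Oas2, Rsad2, Usp18, Bst2, Irf7 and Rtp4. Ifit1 was at 27.2, 33.03 and 47.3 CPM over the WT replicates, Usp18 at 21.3, 24.5 and 34.02 and Rsad2 at 5.25, 6.39 and 11.3. These are the conventional libraries with Y-linked reads. Whether that difference between replicates plays a part was not tested. Leaving either out kept all 9 higher calls of the conventional comparison (9 to 10 higher over the 6 libraries left out in turn).

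In regulatory T cells WT replicate 3 and KO replicate 1, which had Xist as well as Y-linked reads at 5 CPM or more, stood at opposite ends of their groups for different genes. In both of them 16 genes were the highest of their group (32.7%, against 22.6% of all genes): Stat2, Irf7, Ddx58, Dhx58, Ifit3, Oas1a, Oas2, Oasl1, Oasl2, Eif2ak2, Mx1, Bst2, Ifi44, Rtp4, Xaf1 and Trim30a. In both of them 14 were the lowest (28.6%, against 23.9%): Irf1, Zbp1, Ifi35, Dtx3l, Gbp2, Gbp4, Gbp6, Igtp, Irgm1, Irgm2, Iigp1, Ifi47, Psmb8 and Psmb9. Oas2 was at 2.92, 5.43 and 9.697 CPM over the WT replicates and 11.6, 6.23 and 6.503 CPM over the KO replicates. Irf1 was at 295, 304 and 258 CPM in WT against 248, 315 and 309 CPM in KO. The 5 immunity-related GTPase genes were all among the lowest. Such joint extremes were not particular to the interferon response genes, since 22.6% and 23.9% of all genes had them as well. In the check of replicate pairing, the deviations of WT regulatory replicate 3 and KO regulatory replicate 1 correlated with r = 0.57. Whether the interferon response genes went together in these libraries more than other genes was not tested. These 2 libraries also had the highest B cell marker sums of their groups, 5459 and 5341 CPM against 3928 to 4383 CPM in the other 4, the highest macrophage (1221 and 1968 CPM), dendritic cell (68.01 and 129.9 CPM) and plasmacytoid dendritic cell sums (170.04 and 188 CPM), the lowest Foxp3 (485 and 443 CPM) and the lowest sums of the 6 T cell genes (1683 and 1083 CPM). Other lists went apart. WT replicate 3 had the lowest neutrophil sum of its group, 63.56 CPM against 63.69 and 119.4 CPM, and KO replicate 1 the highest, 305 CPM. The NK cell sum of WT replicate 3 lay in the middle, at 203 CPM, and that of KO replicate 1 was the highest, at 385 CPM. The part of any of these sums and of Foxp3 in the pattern was not tested.

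**Figure D4:**
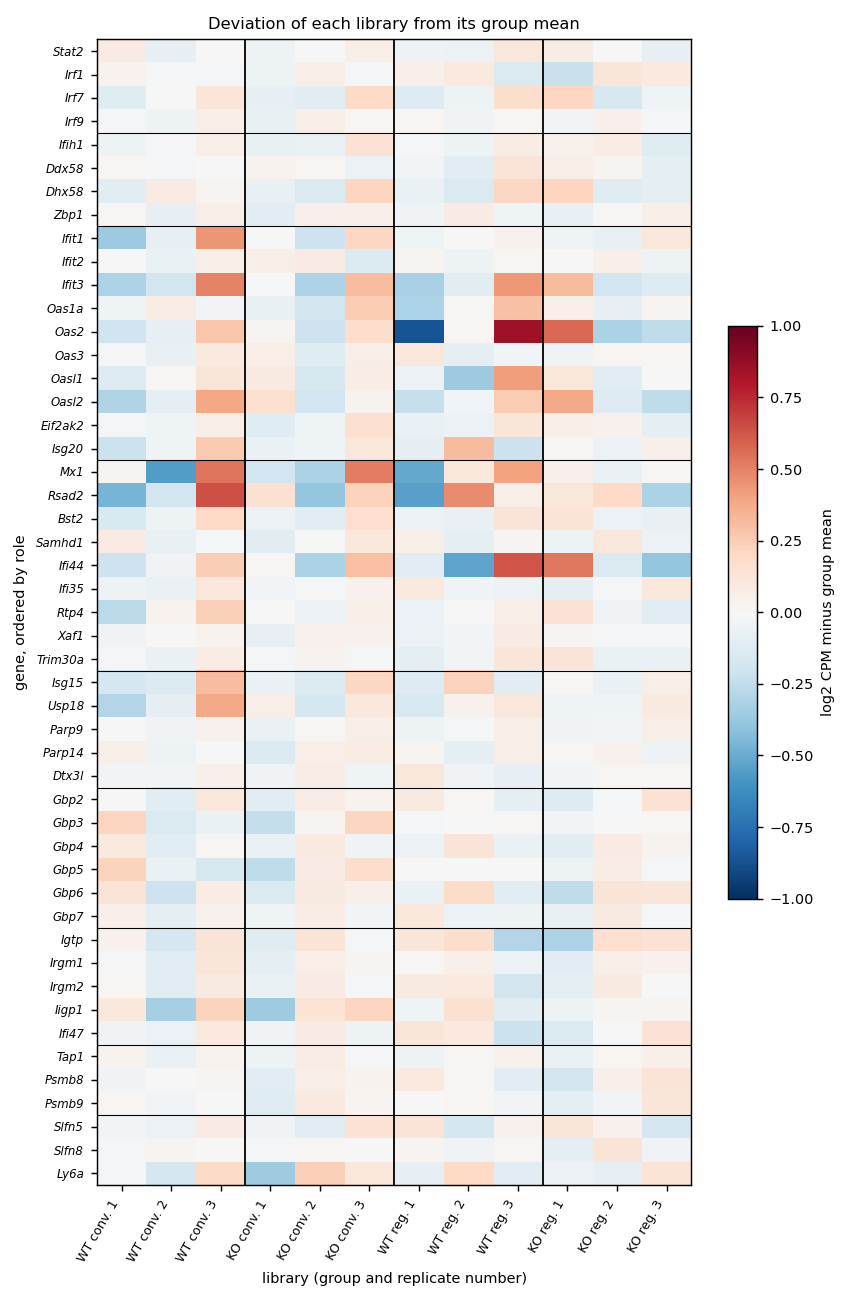
Deviation of each of the 12 libraries (columns) from its group mean, in log2 CPM (prior count 2), for the 49 genes (rows, ordered by role); red is above and blue below the group mean, and values beyond 1 are drawn as 1. WT conventional replicate 3 lies above its group mean in 42 of 49 genes, and WT regulatory replicate 3 and KO regulatory replicate 1 are high for Oas2 and Ifi44 and low for Igtp and Ifi47.

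The other genes of the pathway were read from lists kept apart from the 49. Of 19 interferon genes, 15 had 0 counts in all 12 libraries, and 3 counts in a library, the limit that a count of 0 allows, correspond to 0.0831 to 0.162 CPM. Type I and type III interferon transcripts were thus at most at the edge of detection: Ifnab had the highest total after Ifng, 14 counts over 12 libraries. Ifng alone passed the filter. It was at 2.52, 1.11 and 1.09 CPM in WT against 4.02, 4.92 and 6.201 CPM in KO conventional libraries (log2 fold change 1.68 ± 0.374 (SE), adjusted p = 0.00341), all KO libraries above all WT ones. In regulatory T cells it was at 1.84, 2.39 and 1.97 CPM in WT against 0.656, 1.45 and 1.64 CPM in KO with the KO libraries below the WT ones, and did not pass (log2 fold change -0.73, adjusted p = 0.261). NK cells, whose markers rose in the same KO conventional libraries, are also known makers of Ifng, and their part was not tested.

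Of 10 genes for interferon receptors and their signalling partners, 5 were higher and 2 lower in KO conventional T cells, beside 23.3% and 25.4% of all genes tested. Ifngr1, the ligand-binding chain for interferon gamma, rose from 156, 145 and 149 to 264, 239 and 302 CPM (log2 fold change 0.84 ± 0.101 (SE), adjusted p = 6.89e-05). The lambda receptor chain Ifnlr1 had 0 counts in WT and 61 counts in KO conventional libraries, at least 17.9-fold higher against a floor of 3 counts over the WT group. Ifnar1 fell from 216, 207 and 204 to 182, 184 and 178 CPM (log2 fold change -0.20 ± 0.0467 (SE), adjusted p = 0.00423). In regulatory T cells Ifnar1 was the 1 gene of the 10 called (all genes 4.01% higher and 3.82% lower), at 193, 182 and 182 CPM in WT against 143, 158 and 149 CPM in KO (log2 fold change -0.31 ± 0.0469 (SE), adjusted p = 0.00494). With T cell gene scaling both Ifnar1 values were above 0 and not called (0.39 and 0.22).

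The same all-gene shares apply to the next lists. Of 9 negative regulators, 2 were higher and 1 lower in KO conventional T cells: the SOCS-family gene Cish rose by 0.53 (adjusted p = 0.001103) and the phosphatase gene Ptpn11 by 0.25, the latter lost without WT replicate 2 or 3 or KO replicate 2 or 3 (adjusted p 0.0896 to 0.16001), and the SUMO ligase gene Pias1 fell by 0.23 on the TMM scale, with 0.36 and no call under T cell gene scaling. Of 18 sensing receptors and adaptors 7 were higher and 4 lower (all genes 23.3% and 25.4%). The endosomal receptor Tlr9 rose from 1.48, 1.24 and 1.19 to 8.95, 7.55 and 16.4 CPM (log2 fold change 3.07 ± 0.355 (SE), adjusted p = 5.43e-05), Tlr7 by 1.98 and their trafficking partner Unc93b1 by 2.29. In regulatory T cells, where these 3 were already at 52.5, 63.3 and 332 CPM in WT, none passed.

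Of 8 further IRF genes 4 rose and 3 fell with the knockout in conventional T cells (all genes 23.3% and 25.4%). Irf5 rose from 6.56, 8.93 and 6.02 to 43.1, 36.3 and 74.8 CPM (log2 fold change 2.84 ± 0.2697 (SE), adjusted p = 1.52e-05) and Irf8 from 14.5, 17.2 and 14.7 to 60.6, 40.8 and 83.9 CPM (log2 fold change 1.998 ± 0.2304 (SE), adjusted p = 5.32e-05); B cells and myeloid cells are the known main sites of both, and of Tlr7 and Tlr9. Among 70 further interferon-induced genes, 22 were higher and 20 lower in conventional and 2 higher and 5 lower in regulatory T cells (all genes 23.3% and 25.4%, and 4.01% and 3.82%). Ifitm3, a membrane barrier to virus entry, rose from 4.58, 6.52 and 6.76 to 68.2, 52.8 and 116 CPM (log2 fold change 3.73 ± 0.397 (SE), adjusted p = 3.12e-05) and Ly6c2 by 2.38. Ifitm1 rose by 3.83 in conventional and 1.62 in regulatory T cells, the second call lost without WT regulatory replicate 2 (adjusted p = 0.055004). KO conventional replicate 3, which had the highest macrophage sum, was also the highest of its group for Irf5, Irf8, Tlr7, Tlr9 and Ifitm3. That library was the highest of its group for 32.04% of all genes. The part of myeloid and B cell RNA in these changes was not tested.

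**Figure D5:**
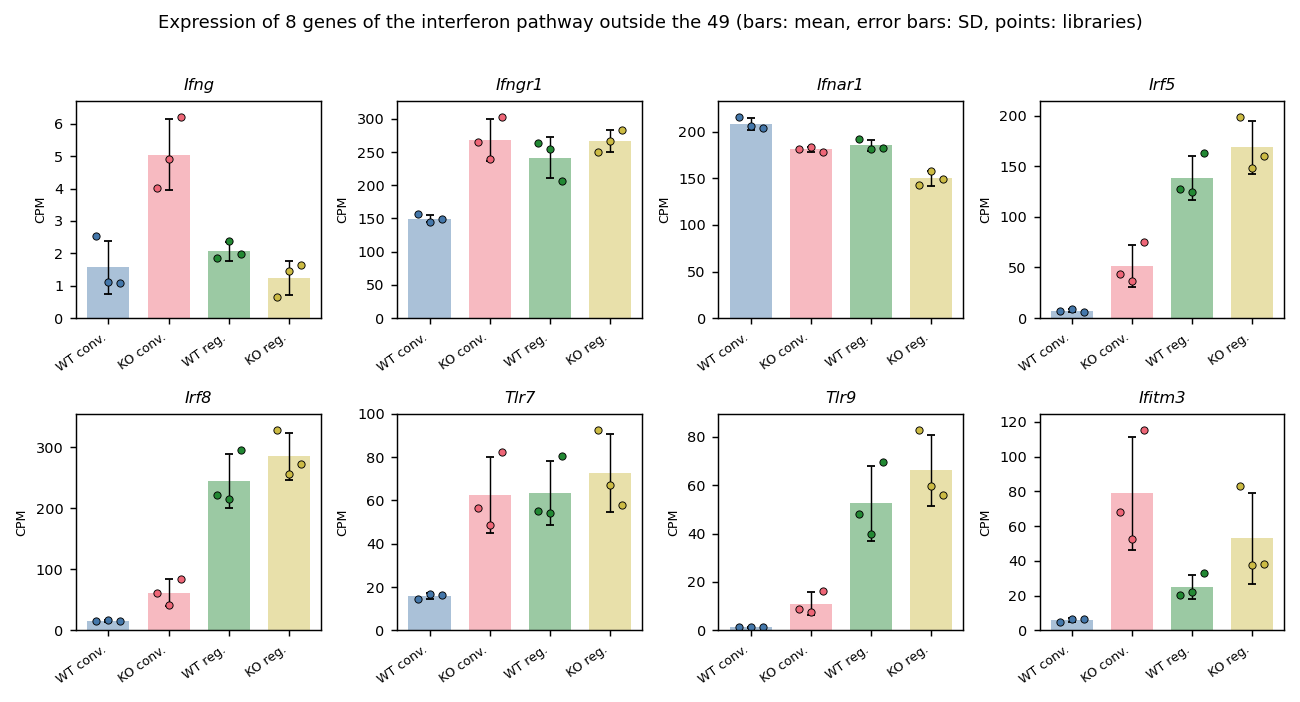
CPM of 8 pathway genes outside the list of 49 in each library; bars are group means, error bars SD and points libraries. Ifng is above the WT conventional libraries in all 3 KO conventional ones, Ifnar1 is lower in KO libraries of both cell types on this scale (above 0 with T cell gene scaling), and Irf5, Irf8 and Tlr9 are highest in the regulatory libraries.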

How the data were processed

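Polyadenylated RNA from 12 T cell libraries was sequenced, aligned with STAR (GRCm38, per the submitters' processing notes) and deposited by the authors as raw read counts per gene; the name of the deposited table says reads were counted on the reverse strand, and the annotation release is not given in the sources used here. Tallies that name no gene held 26.2% to 30.5% of a library's reads and stayed out. Among them, reads that map to several places were 9.25% to 11.1% in conventional and 15.8% to 19.5% in regulatory libraries. Of 45706 identifiers, 45143 matched a symbol. Genes were filtered with filterByExpr (minimum count 10, total 15), scaled by TMM and tested two-sided with edgeR 4.0.16 (glmQLFit, glmQLFTest, all 12 libraries, 1 term per group; R 4.3.3), with Benjamini-Hochberg adjustment over 15922 genes and a threshold of 0.05; the biological coefficient of variation was 0.155. Standard errors are the log2 fold change over the root of F. The script was tested on simulated data.

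The 49 genes, the role, pathway and marker lists and the tests were chosen with earlier results of these data known. Named are Coro1a, up to 4 called members with the highest and 4 with the lowest change per comparison, the 6 with the smallest p for the difference, the most abundant of each role and up to 3 called genes per pathway list; others are named where a group is described. Some genes under this rule are not reported here. The alternatives tried were upper-quartile and RLE factors, scaling to 6 T cell genes, DESeq2 1.42.0, limma-voom (limma 3.58.1), no filter or at least 1 CPM in 3 libraries, only the groups compared, a replicate block, each library left out, the libraries with Xist and Y-linked reads left out, an adjusted p of 0.01 and a 1.5-fold minimum. Leaving out the 2 libraries with both at 5 CPM was chosen after seeing the data. Promoters and exon lengths came from RefSeq (GRCm38.p6) and GENCODE vM21 (GRCm38). Reads of near-identical genes (Oas1a, Gbp6, Ifit3, Slfn8 and their copies) are uncertain.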

Additional observations from a re-analysis of the deposited data

Results flagged for a closer look

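The effect of the knockout differed between regulatory and conventional T cells by the test of the difference itself for 10 of the 49 genes. The share was 10.2% in each direction, and over all genes 8.86% had a higher and 12.4% a lower difference. Values are the log2 change in regulatory minus that in conventional T cells with its SE, from edgeR's quasi-likelihood test with Benjamini-Hochberg adjustment. They were Gbp3 (-1.14 ± 0.151, adjusted p = 6.85e-04), Eif2ak2 (-0.59 ± 0.117, adjusted p = 0.00541), Ifi35 (0.43 ± 0.0963, adjusted p = 0.00991), Irf9 (0.27 ± 0.0673, adjusted p = 0.0172) and Ifit2 (0.33 ± 0.0886, adjusted p = 0.0221). The others were Bst2 (0.55 ± 0.151, adjusted p = 0.0246), Rsad2 (-1.40 ± 0.427, adjusted p = 0.0372), Ddx58 (0.27 ± 0.0873, adjusted p = 0.0447), Ifih1 (-0.34 ± 0.107, adjusted p = 0.0452) and Oas1a (-0.65 ± 0.209, adjusted p = 0.0466). Gbp3 was called under every alternative run, Eif2ak2 under all but T cell gene scaling, and Ifi35 under all but T cell gene scaling and the 1.5-fold minimum. The other 7 were each lost in at least 1 run that left out a single library.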

How the results depend on the processing

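Of 97 calls for single genes over the 5 comparisons, 29 stayed past the threshold in the same direction under every alternative run and 41 under every one but T cell gene scaling. Numbers of the 49 called higher and lower are given in that order. Leaving out 1 library at a time gave 9 to 10 and 7 to 10 for KO against WT conventional, 0 to 6 and 0 to 5 for KO against WT regulatory (5 to 9 at an unadjusted p below 0.05 where 0 passed), 13 to 16 and 14 to 16 for regulatory against conventional in WT, 15 to 17 and 14 to 17 for regulatory against conventional in KO, 1 to 7 and 2 to 5 for the difference of the knockout effects. T cell gene scaling gave 26 and 0 in conventional and 29 and 0 in regulatory T cells, 31 and 2 for cell types in WT, 26 and 2 in KO, and 0 and 1 for the difference (edgeR; 0 members at an unadjusted p below 0.05 for each 0). The 1.5-fold minimum gave 1 lower in conventional T cells, 1 and 0 in regulatory T cells (8 lower at an unadjusted p below 0.05), 8 and 7 for cell types in WT, 10 and 8 in KO, and 0 higher for the difference (8 at an unadjusted p below 0.05). In regulatory T cells DESeq2 gave 4 and 6; 0 and 0 came from only the groups compared (11 and 9 at an unadjusted p below 0.05), from leaving out the 4 libraries with Xist and Y-linked reads (4 and 6; 1 library a group left) and from an adjusted p of 0.01 (9 and 8). For the difference, RLE factors, limma-voom, no filter and the replicate block each gave 3 lower, the stricter filter 2 higher, leaving out those 4 libraries 3 and 3, leaving out 2 of them 2 lower, and an adjusted p of 0.01 gave 1 and 2. The cause of these moves was not tested beyond the smaller number of libraries or the stricter threshold itself.

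The values that changed sign while called on at least 1 of the 2 scales did so under T cell gene scaling, which moves the median of all genes by 0.58 in conventional and 0.53 in regulatory T cells, and by 0.64 and 0.58 for cell types in WT and KO. For KO against WT conventional, the log2 values on that scale were Irf1 0.52, Irf9 0.23, Zbp1 0.54, Ifi35 0.26, Xaf1 0.56, Parp9 0.56, Dtx3l 0.53, Gbp2 0.56, Igtp 0.00412, Irgm1 0.45, Irgm2 0.45, Ifi47 0.16, Tap1 0.36, Psmb8 0.47, Psmb9 0.40, Slfn5 0.33, Slfn8 0.38, Ifnar1 0.39 and Pias1 0.36. For KO against WT regulatory, the log2 values on that scale were Zbp1 0.51, Ifit2 0.23, Dtx3l 0.47, Irgm1 0.45, Slfn5 0.18, Slfn8 0.29, Ifnar1 0.22 and Ptpn11 0.53. For regulatory against conventional in WT, the log2 values on that scale were Irf1 0.41, Irf7 0.0884, Irf9 0.57, Ifih1 0.36, Ddx58 0.0146, Zbp1 0.16, Ifit1 0.20, Xaf1 0.22, Trim30a 0.58, Usp18 0.66, Parp9 0.57, Parp14 0.40, Dtx3l 0.0792, Gbp6 0.45, Gbp7 0.56, Igtp 0.56, Irgm1 0.40, Irgm2 0.40, Ifi47 0.43, Tap1 0.63 and Slfn8 0.0245. For regulatory against conventional in KO, the log2 values on that scale were Irf1 0.42, Ddx58 0.23, Zbp1 0.13, Xaf1 0.30, Parp9 0.55, Parp14 0.36, Dtx3l 0.0258, Gbp7 0.28, Irgm1 0.40, Irgm2 0.26 and Ifi47 0.53. Called on neither scale, a further 12 of the 49 changed sign for KO against WT conventional, 13 for KO against WT regulatory, 3 for regulatory against conventional in WT, 6 for regulatory against conventional in KO and 5 for the difference of the knockout effects. 

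Whether equal replicate numbers pair the libraries was not settled. Deviations of same-numbered libraries correlated above 0.1 in 4 of 12 pairs (r from -0.52 to 0.18). With 3 libraries per group such correlations cannot exclude a pairing. In the conventional groups the sex-linked reads went by replicate number, with Y-linked reads in replicate 3 of both genotypes. With the replicate block, the difference had 3 members lower in place of 5.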
